A study of Mus musculus with 6 samples.

Results

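The genes described here encode the epidermal growth factor receptor (EGFR) system of the hepatocyte. They are 5 ligands (Areg, Hbegf, Tgfa, Ereg and Btc), 3 receptors (Egfr, Erbb2 and Erbb3) and 2 feedback genes (Errfi1 and Lrig1). They were found by matching gene names in the deposited tables, and all 10 were present among the 25330 genes listed. The RNA-seq dataset compared AML12 cells, a mouse hepatocyte line of WT genotype, between normoxia (control, 3 libraries) and hypoxia-reoxygenation (H/R, 3 libraries). Both groups were grown in medium with 10% fetal bovine serum, an insulin-transferrin-selenium supplement and 40 ng/mL dexamethasone. Control cells stayed in 21% O2, whereas H/R cells were moved to medium without serum or glucose, held for 6 h in 1% O2 and then reoxygenated for 2 h. The paper does not state whether that medium kept the supplement and dexamethasone. Low oxygen, reoxygenation, the change of medium and the withdrawal of serum and glucose therefore cannot be told apart in this comparison. AML12 cells were derived from a mouse carrying a transgene for human TGFA. Whether reads of the transgene reached the Tgfa row was not tested. Nothing in the labels states that the libraries came from separate cultures, and the p-values then measure the spread between these libraries, which may be technical.

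EGF-family ligands are made as transmembrane precursors and are released at the cell surface by metalloproteases. A released ligand of EGFR can bring receptors together as pairs of EGFR with itself or with another family member. The activated kinases signal through the ERK, PI3K and STAT routes. Errfi1 and Lrig1 belong to the brakes on this system. In the liver the pathway is best known for driving hepatocyte proliferation during regeneration.

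Total counts lay between 21026650 and 21854790 in the control libraries and between 20438746 and 21742441 in the H/R libraries. One control library, replicate 1, stood apart: it held 59 genes with at least 10 counts that had at most 2 counts in every other library, against 0 to 2 such genes in the other libraries. Of 10 hepatocyte markers, all were listed and 9 had at least 10 counts in every library, and their summed RPKM (reads per kilobase of exon, scaled to the library total) was 2505 to 2716 in control and 3741 to 3771 in H/R cells, most of it from Krt8 and Krt18. Secretory markers were low, since Alb reached 132 to 209 counts in the control libraries other than replicate 1, where it had 542, and 31 to 43 in H/R libraries. Biliary keratins were abundant as well. The summed RPKM of the 4 listed biliary markers was 656 to 746 in control and 1090 to 1144 in H/R cells. Most of this sum came from Krt19, with 470 to 540 RPKM in control and 894 to 947 in H/R libraries. Krt7 and Sox9 were also higher in H/R libraries, whereas Spp1 was lower. Spp1 had 121 to 136 RPKM in control and 78.0 to 82.6 in H/R libraries. Endothelial markers summed to at most 0.0959 RPKM and stellate markers to at most 0.230. The 5 macrophage markers went from 1.15 to 1.31 up to 5.00 to 5.76 RPKM with H/R, mainly through Cd68. Cd68 had 0.582 to 0.832 RPKM in control and 4.40 to 5.01 in H/R libraries. Csf1r had 0.403 to 0.534 RPKM in control and 0.601 to 0.744 in H/R libraries. Adgre1, Clec4f and Ptprc had at most 3 counts in any library. The part of these other markers in the results below was not tested.

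Across the EGFR system, Areg, Ereg, Hbegf, Errfi1 and Erbb3 rose more than 2-fold after H/R, Egfr, Tgfa and Lrig1 rose by less, and no change was detected for Erbb2 and Btc. Thus 5 of the 10 genes passed both thresholds of the study, an adjusted p under 0.05 and a change of at least 2-fold, and all 5 were higher in H/R (edgeR quasi-likelihood test with Benjamini-Hochberg adjustment over 14020 tested genes). Among all tested genes 8.52% passed both thresholds, and 4.25% did so in the upward direction. By adjusted p alone 8 of the 10 passed, all higher, whereas 62.8% of all tested genes passed in either direction, 31.0% higher and 31.8% lower. The 3 H/R values lay entirely above the 3 control values for the same 8 genes, beside 65.9% of tested genes with no overlap in either direction and 32.5% with all H/R values above. The median log2 fold change of the 10 genes was 1.02, compared with -0.01 over all tested genes. Scaling by library totals alone shifted that overall median to -0.12 and moved the split of all calls from 596 of 1195 higher to 476 of 1286 higher, but the calls among the 10 genes were still 5, all higher. Without control replicate 1 the count was again 5 of 10. In bulk RNA, a change in the number of cells that express a gene and a change in RNA per cell cannot be told apart.

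**Figure D1:**
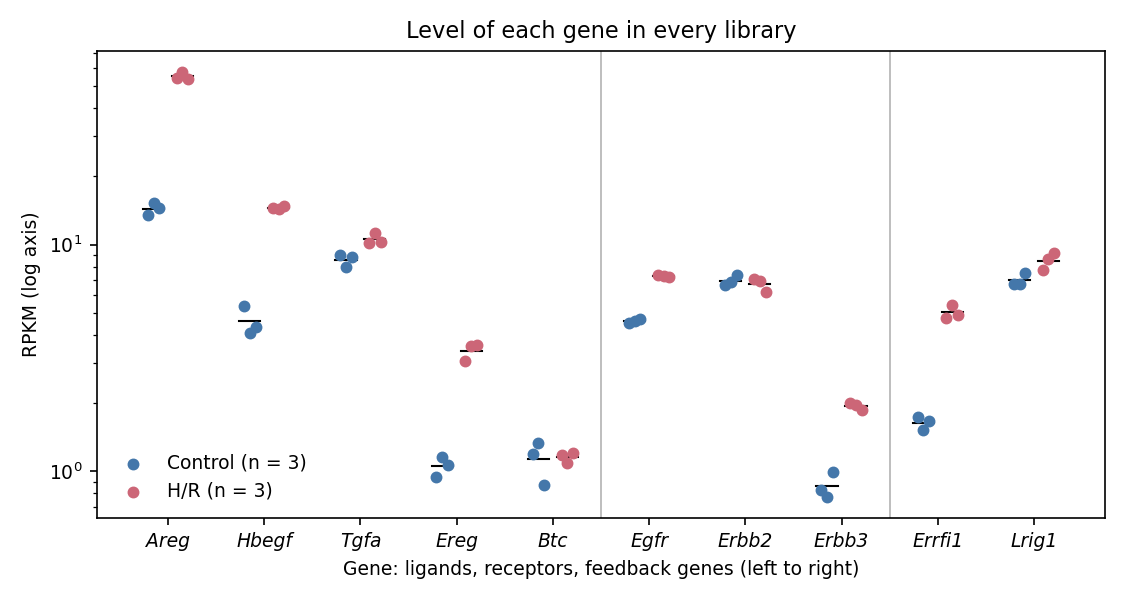
RPKM on a log axis for the 5 ligands, 3 receptors and 2 feedback genes, with 1 point per library (3 control, 3 H/R) and a bar at each group mean. The H/R points lie above all control points for Areg, Hbegf, Tgfa, Ereg, Egfr, Erbb3, Errfi1 and Lrig1, and the groups overlap for Btc and Erbb2.

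Areg encodes amphiregulin, a ligand of EGFR that is released by proteolytic shedding. Its counts were 359, 389 and 374 in the control libraries and 1355, 1430 and 1414 in the H/R libraries. Every H/R library therefore held more than 3 times as many Areg counts as any control library. After scaling by the trimmed mean of M values (TMM), the mean went from 357 ± 20.2 to 1472 ± 65.5 counts (SD, n = 3 each), a log2 fold change of 2.04 (SE 0.0610, 95% interval 1.92 to 2.17, adjusted p = 8.11e-25 by edgeR). Areg had the largest change of the 10 genes, and 108 of the 596 genes that passed both thresholds upward had a log2 fold change at least that large, Areg included.

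Ereg encodes epiregulin, which binds EGFR and ERBB4. It was a low-level transcript, with 85, 100 and 94 counts in control and 259, 300 and 324 counts in H/R libraries, and the groups were well apart. TMM-scaled means were 88.8 ± 8.53 and 309 ± 25.8 counts, which gave a log2 fold change of 1.80 (SE 0.112, 95% interval 1.57 to 2.02, adjusted p = 6.38e-16 by edgeR). Of its exon length, 3.42% is shared with Gm42532 on the opposite strand, whose own log2 fold change was 0.82, so a small part of the Ereg counts is uncertain.

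Hbegf (chr18:36504929-36515805, GRCm38) encodes heparin-binding EGF-like growth factor, another ligand of EGFR and ERBB4. Control libraries held 279, 203 and 218 counts and H/R libraries 703, 696 and 762. Control replicate 1 was the highest of its group and still far under the lowest H/R library. The scaled mean went from 222 ± 36.3 to 756 ± 5.46 counts, with a log2 fold change of 1.76 (SE 0.0827, 95% interval 1.60 to 1.93, adjusted p = 1.28e-18 by edgeR). Without control replicate 1 the log2 fold change was 1.91.

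Tgfa (chr6:86195223-86275719) encodes transforming growth factor alpha, a ligand of EGFR alone. It had 1269, 1089 and 1222 counts in control and 1356, 1489 and 1449 counts in H/R libraries, so the groups were separate but close. The scaled means of 1138 ± 70.6 and 1505 ± 87.8 counts differed by 0.40 on the log2 scale (SE 0.0541, 95% interval 0.29 to 0.51, adjusted p = 6.54e-08 by edgeR), which is a 1.32-fold rise and under the 2-fold threshold. The exons share 1.82% of their length with Gm43917.

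Btc encodes betacellulin, which binds EGFR and ERBB4. Its counts were 118, 127 and 84 in control and 110, 101 and 119 in H/R libraries, with full overlap of the groups. The log2 fold change of 0.14 was not significant (95% interval -0.16 to 0.44, adjusted p = 0.414 by edgeR), and it became -0.03 when control replicate 3 was left out. The upper end of the interval lies under a 2-fold rise and under the lower ends for Areg, Ereg and Hbegf.

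**Figure D2:**
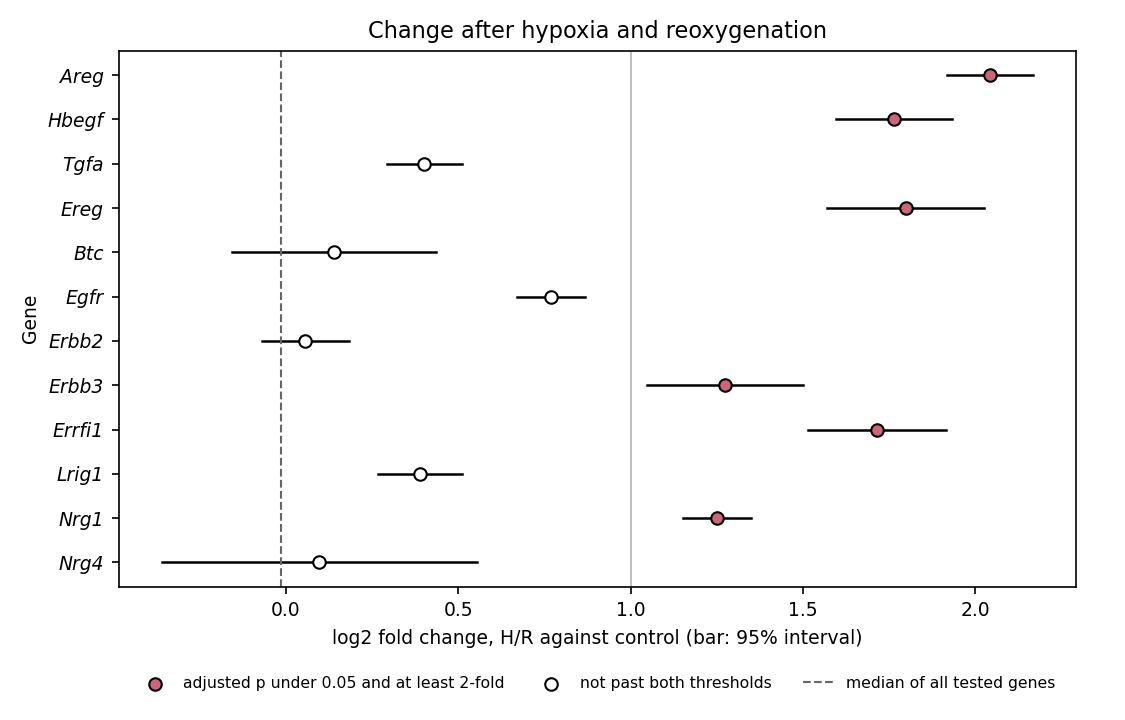
Log2 fold change of H/R against control (points) with 95% intervals (bars) for the 10 genes and for Nrg1 and Nrg4; filled points passed both thresholds. Areg at 2.04, Ereg at 1.80, Hbegf at 1.76 and Errfi1 at 1.71 lie far to the right of the median of all tested genes at -0.01, whereas Btc at 0.14 and Erbb2 at 0.06 have intervals that include 0.

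Levels of different genes were compared per exon length, so their order depends on the exon lengths used. In control cells Areg was the most abundant ligand transcript at 14.4 ± 0.854 RPKM, followed by Tgfa at 8.59 ± 0.528, Hbegf at 4.59 ± 0.698, Btc at 1.13 ± 0.238 and Ereg at 1.05 ± 0.106 RPKM (SD, n = 3). Each neighbour in this order was separate from the next in all libraries except Btc and Ereg, which overlapped. In H/R cells the order was Areg at 55.1 ± 2.15, Hbegf at 14.5 ± 0.222, Tgfa at 10.6 ± 0.580, Ereg at 3.41 ± 0.305 and Btc at 1.16 ± 0.0619 RPKM, with no overlap between neighbours. Hbegf and Tgfa had thus exchanged ranks in RPKM, and the ratio of their RPKM went from 0.533 ± 0.0601 to 1.38 ± 0.0870. By raw counts Tgfa exceeded Hbegf in every library, so the exchange holds per exon length only. Ereg and Btc, which were alike in control cells, were separated 2.94-fold in H/R cells.

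The summed RPKM of the 5 ligands was 30.0, 29.8 and 29.5 in the control libraries and 83.2, 87.8 and 83.4 in the H/R libraries. The sum was 2.85-fold higher after H/R, and its spread within groups was small. Leaving Areg out, the other 4 ligands summed to 15.4 ± 0.993 RPKM in control and 29.6 ± 0.709 in H/R cells, a 1.93-fold difference. The share of Areg in the ligand sum went from 48.4% ± 3.07 to 65.0% ± 0.736, while that of Tgfa went from 28.9% ± 1.77 to 12.4% ± 0.296 and that of Btc from 3.81% ± 0.783 to 1.37% ± 0.113. The shares of Hbegf, 15.4% ± 2.25 and 17.1% ± 0.710, and of Ereg, 3.54% ± 0.370 and 4.02% ± 0.329, overlapped between the groups. With 3 libraries against 3, the smallest two-sided p of an exact permutation test is 0.1. Of the 17 sums, shares and ratios compared, 15 reached this p (0.113 after Benjamini-Hochberg adjustment). The exceptions were the shares of Hbegf (exact p = 0.4) and Ereg (exact p = 0.2). The genes were chosen with earlier results known and the 6 ratios after the values were seen. Shares within a sum also depend on each other, so this tally is a description only.

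**Figure D3:**
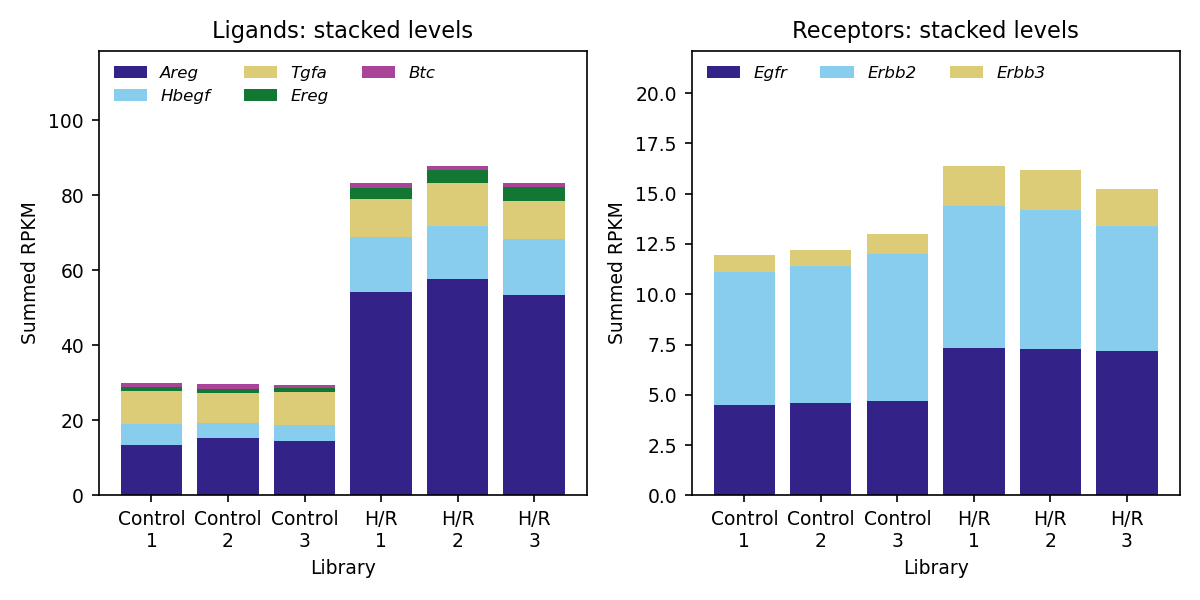
Stacked RPKM in each library for the 5 ligands (left) and the 3 receptors (right), with linear axes that start at 0. The ligand stacks go from about 29.8 RPKM in control to 84.8 in H/R libraries, mostly through Areg, and the receptor stacks from 12.4 to 15.9 RPKM.

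The ligand genes Ereg, Areg and Btc lie on 1 stretch of chromosome 5, together with Epgn, the gene of epigen (GRCm38 coordinates of the tables). Ereg is at chr5:91074622-91093646 and Areg at chr5:91139599-91148432, both on the plus strand and 46.0 kb apart, and Btc is at chr5:91357261-91402994 on the minus strand, 209 kb beyond Areg. The whole stretch from Epgn to Btc covers 376 kb. Epgn had 0, 0 and 2 counts in control and 0 counts in each H/R library and was not tested. Within the stretch, the changes were large for Ereg and Areg and not detected for Btc. The gene model Gm42532, which overlaps Ereg on the opposite strand, had a log2 fold change of 0.82 (95% interval 0.50 to 1.15). The gene model Gm19619 between Areg and Btc had 10 to 18 counts per library and a log2 fold change of 0.17 (95% interval -0.55 to 0.89).

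**Figure D4:**
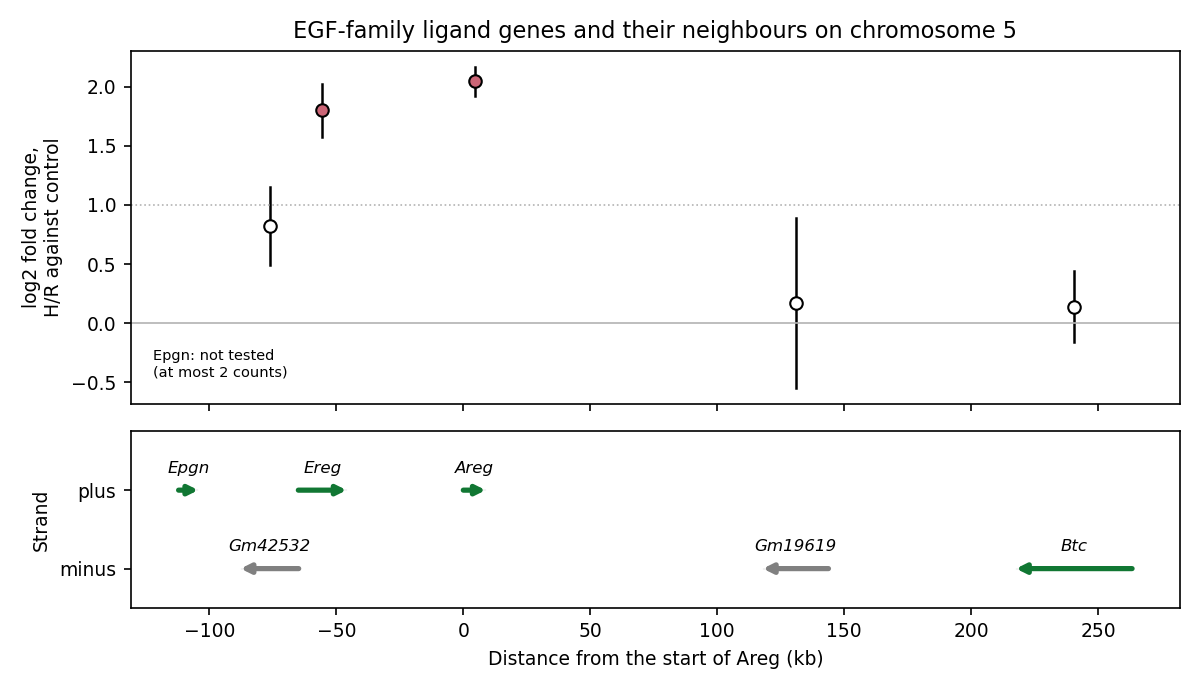
Upper panel, log2 fold change of H/R against control (points) with 95% intervals (bars) for the genes of the chromosome 5 stretch, placed at the middle of each gene; filled points passed both thresholds and the dotted line marks a 2-fold rise. Lower panel, extent and strand of each gene in kb from the start of Areg, with ligand genes in green; Ereg and Areg at 1.80 and 2.04 stand above Btc at 0.14.

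The promoters of Areg and Btc are shown because these neighbouring ligand genes differed in response. They are the 250 bases before the RefSeq start site on GRCm38.p6, written 5′ to 3′ on the strand of the gene, at chr5:91139349-91139598 (plus strand) for Areg and chr5:91402995-91403244 (minus strand) for Btc. Capitals mark matches to the letters searched on both strands, which were ACGTG (the core of a hypoxia response element), TGANTCA (AP-1), TGACGTCA (the cyclic AMP response element) and GGAATG (TEAD).
Areg: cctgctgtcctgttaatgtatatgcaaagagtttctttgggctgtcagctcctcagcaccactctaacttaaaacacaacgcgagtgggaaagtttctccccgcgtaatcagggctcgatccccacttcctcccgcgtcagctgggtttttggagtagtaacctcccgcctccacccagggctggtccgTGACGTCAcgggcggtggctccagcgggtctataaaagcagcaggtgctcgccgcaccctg
Btc: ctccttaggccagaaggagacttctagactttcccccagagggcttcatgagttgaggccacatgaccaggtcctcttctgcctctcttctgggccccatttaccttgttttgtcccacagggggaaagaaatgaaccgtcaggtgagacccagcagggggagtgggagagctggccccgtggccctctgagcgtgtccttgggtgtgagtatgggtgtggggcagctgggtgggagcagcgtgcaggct

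The Areg window holds TGACGTCA once, at position -61 from the start site, and the Btc window holds none of the letters. The search covered windows of 300 bases, 250 before and 50 after each start. Over all 32851 RefSeq promoters, 1.79% hold TGACGTCA, 19.6% ACGTG, 7.81% TGANTCA and 14.7% GGAATG. Promoters were matched for 7 of the 10 genes, and those of Ereg, Hbegf and Erbb3 were not analysed here. A match is a description of the letters and does not show that a factor binds there.

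Among all other 14019 tested genes, those whose profile over the 6 libraries lay nearest to that of Areg were Junb, Dusp8 and Gm11946. Nearness was the Euclidean distance between log2 CPM (counts scaled to library size) after subtraction of the control mean of each gene. The distances were 0.175, 0.184 and 0.191, and the median over all other genes was 3.57. This distance mostly reflects the size of the change, so an unchanged gene lies far from Areg by construction. The nearest genes are therefore those with a change of similar size, and shared regulation was not tested. Junb, which encodes a subunit of the AP-1 transcription factor, had a log2 fold change of 2.03, and the gene model Gm11946 1.96. Dusp8, which encodes a MAP kinase phosphatase, had a log2 fold change of 2.19 with an SE of 0.199. It rests on 23, 22 and 21 counts in the control libraries. Gm11946 shares 21.8% of its exon length with other genes and Junb 7.52%, so their values are uncertain to that extent.

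Egfr (chr11:16752203-16918158) encodes the receptor that binds all 5 ligands. Its counts were 1114, 1091 and 1131 in control and 1708, 1683 and 1773 in H/R libraries, with little spread within either group. Scaled means went from 1061 ± 5.55 to 1809 ± 34.3 counts, a log2 fold change of 0.77 (SE 0.0479, 95% interval 0.67 to 0.87, adjusted p = 6.64e-16 by edgeR). This 1.70-fold rise was under the 2-fold threshold.

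Erbb2 (chr11:98412470-98437716) encodes a receptor that binds no ligand itself and acts as the partner of the others. It had 755, 750 and 814 counts in control and 751, 739 and 699 counts in H/R libraries, and after scaling the groups overlapped. The log2 fold change was 0.06 (95% interval -0.07 to 0.18, adjusted p = 0.435 by edgeR). Its sign depended on the scaling, since it was -0.05 with library totals alone, where the median of all tested genes was -0.12.

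Erbb3 (chr10:128567523-128589652) encodes a receptor with an impaired kinase that binds neuregulins. Control libraries held 109, 98 and 127 counts and H/R libraries 248, 241 and 245, so all H/R values were well above the control values. Scaled means of 106 ± 12.3 and 257 ± 11.4 counts gave a log2 fold change of 1.27 (SE 0.111, 95% interval 1.05 to 1.5, adjusted p = 3.94e-12 by edgeR). Tested against a 2-fold threshold instead of 0, the adjusted p was 0.0635 (edgeR). On log2(RPKM + 1) values, which compress low levels, the log2 fold change was 0.66 and under the fold threshold (adjusted p = 8.09e-05 by limma).

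Per exon length Erbb2 was the most abundant receptor in control cells at 6.94 ± 0.357 RPKM, before Egfr at 4.59 ± 0.0920 and Erbb3 at 0.865 ± 0.112. In H/R cells Egfr came first at 7.27 ± 0.0736 RPKM, before Erbb2 at 6.71 ± 0.470 and Erbb3 at 1.95 ± 0.0686. Neighbours in both orders were separate in every library. The RPKM ratio of Egfr to Erbb2 was 0.679, 0.669 and 0.639 in control and 1.05, 1.05 and 1.17 in H/R libraries. The rise of this ratio does not depend on exon length, but the exchange of ranks does. By raw counts Egfr exceeded Erbb2 in every control library as well, with 1114, 1091 and 1131 against 755, 750 and 814 counts. The exon lengths used were 11326 bases for Egfr and 5210 for Erbb2. The sum of the 3 receptors was 1.29-fold higher in H/R cells (12.4 ± 0.546 and 15.9 ± 0.604 RPKM, exact p = 0.1), a smaller ratio than that of the ligand sum. Within it the share of Erbb3 went from 6.97% ± 0.634 to 12.2% ± 0.0898 and that of Erbb2 from 56.0% ± 0.476 to 42.1% ± 1.40.

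Errfi1 (chr4:150853919-150868892) encodes MIG6, a cytoplasmic protein that binds the kinase domain of EGFR and blocks it, and it is itself induced by EGFR signalling. Its counts were 136, 115 and 127 in control and 348, 398 and 381 in H/R libraries. The lowest H/R library thus held far more counts than the highest control library. The scaled mean went from 120 ± 8.32 to 395 ± 29.9 counts, a log2 fold change of 1.71 (SE 0.0988, 95% interval 1.51 to 1.92, adjusted p = 7.83e-17 by edgeR). Relative to its target, the RPKM ratio of Errfi1 to Egfr went from 0.358 ± 0.0265 to 0.690 ± 0.0526.

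Lrig1 (chr6:94604529-94700158) encodes a transmembrane protein that promotes the degradation of ERBB receptors. It had 814, 788 and 895 counts in control and 885, 983 and 1109 counts in H/R libraries, and after scaling the groups did not overlap. Means of 794 ± 42.1 and 1041 ± 79.4 scaled counts gave a log2 fold change of 0.39 (SE 0.0599, 95% interval 0.27 to 0.51, adjusted p = 7.82e-07 by edgeR), a 1.31-fold rise. The exons share 2.58% of their length with Slc25a26. Lrig1 remained the more abundant feedback transcript, at 8.49 ± 0.714 RPKM against 5.02 ± 0.369 RPKM for Errfi1 in H/R cells, although the RPKM ratio of Errfi1 to Lrig1 went from 0.236 ± 0.0211 to 0.593 ± 0.0508.

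The Errfi1 promoter is shown because this feedback gene changed by nearly as much as the ligands Hbegf and Ereg. RefSeq lists 2 start sites for it, and counts per gene do not tell which one was used. The window before the downstream start site lies at chr4:150854820-150855069 (GRCm38.p6, plus strand) and is written as for Areg.
Errfi1: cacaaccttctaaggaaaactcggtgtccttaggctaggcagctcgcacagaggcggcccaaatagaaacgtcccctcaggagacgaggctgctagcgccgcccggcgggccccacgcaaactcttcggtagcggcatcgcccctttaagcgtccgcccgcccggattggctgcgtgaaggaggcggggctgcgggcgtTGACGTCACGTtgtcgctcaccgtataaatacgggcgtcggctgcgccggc

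This window holds TGACGTCA at position -51 from the start site, and an overlapping ACGTG on the opposite strand at -45. The window of the upstream start site holds GGAATG once and no other letters searched. Elsewhere Lrig1 had ACGTG at -130 and Erbb2 GGAATG at -88, and the windows of Egfr and Tgfa held none. Among the 7 genes with a matched promoter, TGACGTCA was found for Areg and Errfi1, and TGANTCA for none. These 7 include 2 of the 5 genes past both thresholds, so nothing can be read from this for the 5 as a group.

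The remainder of the pathway was described from 4 lists with 66 genes, of which 62 were in the tables and 58 were tested. Past both thresholds 5 of the 58 were higher and 1 was lower in H/R. Among all tested genes 8.52% passed in either direction and 4.25% passed higher. The count in either direction was near that background. Whether the count of 5 higher exceeds its background was not tested. By adjusted p alone (edgeR) 33 were higher, 10 lower and 15 did not pass, beside 31.0% higher and 31.8% lower among all tested genes. Their median log2 fold change was 0.23. With library totals alone the split by adjusted p was 27 higher and 14 lower.

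The other ligands and receptors of the family held 7 genes, of which Nrg1 and Nrg4 were tested. Nrg1 encodes neuregulin 1, a ligand of ERBB3 and ERBB4. Its counts were 1052, 1026 and 1003 in control and 2118, 2246 and 2302 in H/R libraries. The scaled mean went from 980 ± 31.3 to 2335 ± 76.5 counts, a log2 fold change of 1.25 (SE 0.0486, adjusted p = 1.19e-21 by edgeR), and 4.66% of its exon length is shared with Gm26578. Its receptor gene Erbb3 was higher in the same H/R libraries. Nrg4 had a log2 fold change of 0.10 (95% interval -0.36 to 0.55). Egf itself had between 1 and 7 counts per library and was not tested. Nrg2, Nrg3 and Erbb4 were not analysed here.

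Of the genes for ligand release, which hold the metalloproteases and the iRhom proteins that assist them, 10 were tested and none passed both thresholds, where 8.52% of all tested genes did. By adjusted p 6 were higher and 2 lower, beside 31.0% and 31.8% of all tested genes. Their median log2 fold change was 0.20. The 6 that rose by adjusted p were Rhbdf2 (log2 fold change 0.58), Adam9 (0.45), Adam12 (0.43), Adam10 (0.24), Adam8 (0.21) and Rhbdf1 (0.18), and the 2 that fell were Frmd8 (-0.29) and Adam17 (-0.18), all named after their values were seen. Adam17, which encodes the main sheddase of Areg, Hbegf and Tgfa, had 1925, 1676 and 1784 counts in control and 1326, 1418 and 1576 counts in H/R libraries. It fell by 0.18 on the log2 scale (adjusted p = 0.00249 by edgeR).

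The list named other brakes on the receptors held 15 tested genes, of which 3 rose past both thresholds, beside 4.25% of all tested genes. Whether each listed gene acts as a brake in these cells was not tested. By adjusted p 11 were higher and 1 lower, beside 31.0% and 31.8%. Cblb, a ubiquitin ligase that targets activated receptors, had scaled means of 533 ± 29.9 and 1194 ± 52.0 counts (log2 fold change 1.16). For Socs5, an adaptor that promotes EGFR degradation, they were 204 ± 23.4 and 433 ± 24.5 counts (1.09). For Lrig2, a relative of Lrig1, they were 147 ± 7.91 and 297 ± 25.2 counts (1.01). The median log2 fold change of the list was 0.42. Lrig2 fell under the 2-fold threshold with upper quartile scaling (0.94), and both Lrig2 (0.91 and 0.81) and Socs5 (0.99 and 0.96) did so with library totals and on log2(RPKM + 0.1). Lrig2 also did so, at 0.966 to 0.999, when control replicate 2, control replicate 3, H/R replicate 2 or H/R replicate 3 was left out.

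The relay from the receptors to ERK, PI3K and STAT held 31 tested genes, with a median log2 fold change of 0.09. Past both thresholds 1 was higher and 1 lower, beside 8.52% of all tested genes in either direction. Gab2, a docking adaptor, went from 584 ± 28.0 to 1292 ± 43.0 scaled counts (log2 fold change 1.14). Nck2, an adaptor of the actin cytoskeleton, went from 252 ± 8.10 to 123 ± 11.3 scaled counts (-1.03) and was under the 2-fold threshold without H/R replicate 2. By adjusted p 15 relay genes were higher, 7 lower and 9 did not pass, beside 31.0% higher and 31.8% lower (62.8% in all) among all tested genes.

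**Figure D5:**
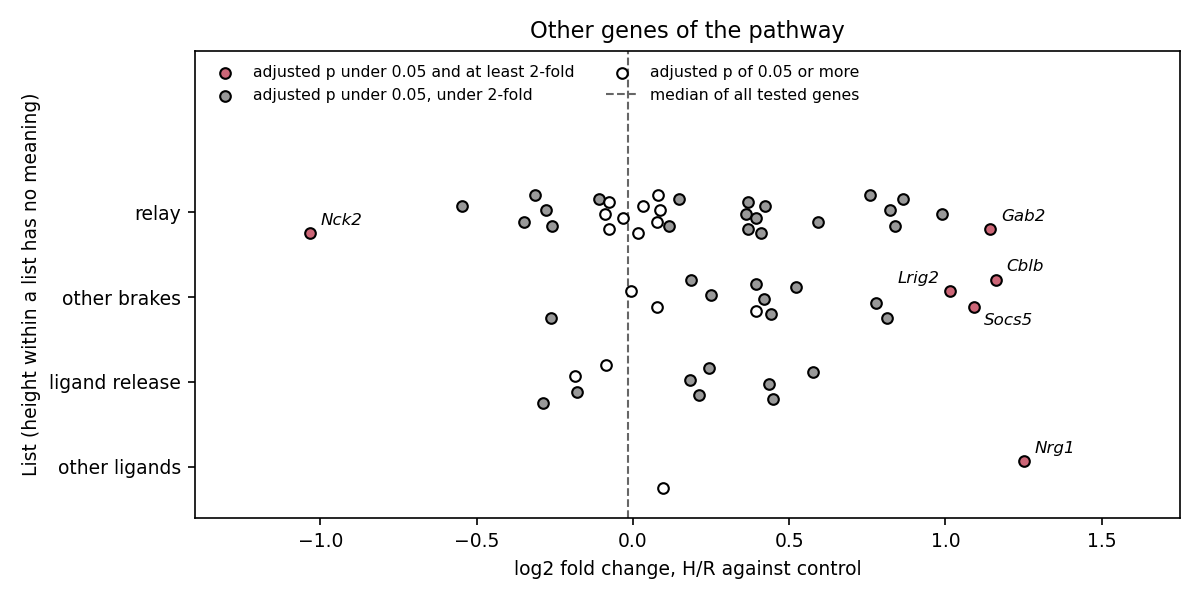
Log2 fold change of H/R against control for the 58 tested genes of the 4 lists, 1 point per gene; the height within a list has no meaning. Red points passed both thresholds (Nrg1, Cblb, Socs5, Lrig2 and Gab2 higher, Nck2 lower), grey points passed the adjusted p alone, and the dashed line is the median of all tested genes at -0.01.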

How the data were processed

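RNA-seq libraries of AML12 cells (3 control, 3 H/R) were grouped by the treatment in the labels. The study describes TRIzol RNA, a stranded mRNA kit, paired-end NovaSeq sequencing and mapping to GRCm38 with a program printed as STRA. Per the labels, the submitters' processing notes name Trimmomatic 0.36, featureCounts, Subread 1.5.1 and edgeR 3.12.1. The annotation release and the strand setting of counting are not given in the sources used here. The deposited tables hold whole read counts per gene without normalization, and RPKM values that the authors computed from count, exon length and library total (recomputed with a largest relative difference of 1.13e-06).

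Counts were fitted in R 4.3.3 with edgeR 4.0.16 (filterByExpr, TMM, robust quasi-likelihood test, no block) over 14020 genes, and the script was tested on simulated data. Intervals are 95%. A gene passed at an adjusted p under 0.05 and a fold change of at least 2, as in the study. Totals of 20438746 to 21854790 counts and a biological coefficient of variation of 0.0502 set the precision. Shares, sums and ratios used RPKM and exact two-sided permutation tests (SciPy 1.17.1). Alternatives used DESeq2 1.42.0, other scalings and filters, a block and limma 3.58.1 on log2 RPKM with a pseudocount of 1 or 0.1. Promoter letters came from RefSeq (GRCm38.p6).

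All 10 genes are named. Of the 4 lists, genes past both thresholds are named, and for the gene with the largest change the 3 nearest profiles. The genes and lists were chosen with earlier results of these data known, and the 6 ratios and the ligand release genes after the values were seen. The protein comparison planned for the ligands was not run. The fit with the replicate number as a block was an alternative and not the main fit, since same-numbered libraries did not deviate together.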

Additional observations from a re-analysis of the deposited data

How the results depend on the processing

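For the 10 genes, 145 of 150 log2 fold changes over 15 alternatives kept their direction and their side of the adjusted p threshold. The exceptions were Erbb2 at -0.0131 under upper quartile scaling and -0.0483 when scaled by totals, Erbb2 at -0.0422 in limma on log2(RPKM + 1) and at -0.0478 with 0.1 added instead, and Btc at -0.0276 without control replicate 3 (between -0.0276 and 0.275 with 1 library left out). None of these passed the test, and the cause was not tested. The number of the 10 genes past both thresholds was 5 with every library left out in turn, 4 against a 2-fold threshold in the test itself and on log2(RPKM + 1) (Erbb3 lost in both), 6 at 1.5-fold, 8 with no fold threshold and 1, Areg, at 4-fold. Over all genes the count was 1195, compared with 406 on log2(RPKM + 1), where the added 1 compresses low levels, 3420 at 1.5-fold, 162 at 4-fold, 8806 with no fold threshold, 474 against a 2-fold threshold in the test and 1211 to 1290 with 1 library left out. With TMM-scaled library sizes the ligand sum was 3.06-fold higher and the receptor sum 1.38-fold higher. In the 4 lists, an alternative chosen after seeing the data gave 0 genes past both thresholds on log2(RPKM + 1), where 27 were higher and 13 lower by adjusted p.

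Numbering did not act as a pairing: after subtraction of the group mean, control and H/R libraries that carry 1 number correlated at -0.03, 0.00 and -0.01. A fit with the number as a block put 5 of the 10 genes and 1200 genes in all past both thresholds. At these depths, Btc, Ereg, Erbb3 and Errfi1 rest on 84 to 136 counts in each control library, and their intervals are the widest of the 10.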
